A study of Mus musculus with 18 samples.

Results

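Somitic mesoderm cells are described here in single-cell RNA-seq libraries of mouse embryos collected at E8.5, 18 libraries that are each labelled as a single embryo. Cells were chosen by their transcripts: among barcodes with at least 3000 mouse UMIs (unique molecular identifiers, which count captured RNA molecules), a cell was taken when it held at least 1 UMI of at least 3 of the 4 somitic genes Tcf15, Meox1, Uncx and Tbx18 and none of Tbx6. In all, 2120 of 105556 cells met this rule. The embryos had a 129S4/SvJae strain background and came from matings of heterozygous mice. There were 7 wild-type (WT) libraries, 3 null for Dnmt1 (Dnmt1 KO), 4 null for Dnmt3a (Dnmt3a KO) and 4 null for Dnmt3b (Dnmt3b KO), with no treatment in any group. Genotypes were called by PCR on the ectoplacental cone and the labels do not say from which cross each WT embryo came or how many somites an embryo had.

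Somites are blocks of paraxial mesoderm that pinch off in sequence from the front of the presomitic mesoderm, where Tbx6, Notch, Wnt and FGF signals set their timing. Each new somite is split into an anterior compartment marked by Tbx18 and a posterior one marked by Uncx, and its cells later form sclerotome (the source of vertebrae and ribs) and dermomyotome (the source of skeletal muscle and dermis). Dnmt3a and Dnmt3b encode the enzymes that methylate CpG sites anew around implantation, and Dnmt1 encodes the enzyme that copies methylation at each division. Promoters of many germ cell genes are held silent in the body by this mark.

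Libraries held 1321 to 9849 cells above the UMI threshold, and somitic cells had a median of 17833 to 110307 UMIs per library. The libraries Dnmt3b KO 1 and 2 shared 7493 cell barcodes, 85.7% and 85.9% of their cells, including 54 somitic cells, so they were summed and counted as 1 library, which left 3 for this group. In the tests of cell shares the shares of the 2 libraries were averaged instead. Counts and percentages of cells hold the shared barcodes from both libraries, to which the rule was applied separately. Tests of expression used libraries with at least 20 somitic cells (6 WT, 4 Dnmt3a KO and 3 Dnmt3b KO), and tests of cell shares used all libraries. Levels are given as CPM, in which the UMIs summed over the somitic cells of a library are scaled to a total of 1000000. By Y-linked transcripts all Dnmt1 KO and Dnmt3a KO embryos and the combined Dnmt3b KO library and library 11 were male, whereas of the WT embryos only WT 2 was male, so sex and genotype were partly confounded.

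The targeted genes were examined first. Dnmt1 was at 18.0 CPM (19 UMIs, 95% Poisson interval 10.8 to 28.1) in the pooled Dnmt1 KO somitic cells against 124.6 ± 10.7 CPM (SD, n = 6) in WT. Dnmt3a was at 33.2 to 47.0 CPM in WT and 11.05 to 16.4 CPM in Dnmt3a KO. The library labelled Dnmt3b KO 12 was at 10.6 CPM of Dnmt3a and the library labelled Dnmt3b KO 11 at 18.5 CPM, both below every WT library, while the combined Dnmt3b KO library was at 41.0 CPM, inside the WT range. Dnmt3b itself was at 65.7 ± 8.9 CPM (SD, n = 3) in Dnmt3b KO and 64.4 ± 17.7 CPM (SD, n = 6) in WT. These are 3′ tags and the position of the deleted segment was not used here, so the Dnmt3b level checks nothing, and in libraries 11 and 12 a loss of Dnmt3b and a low Dnmt3a level cannot be told apart. Dnmt3b KO values of named genes are therefore given by library where a result turns on them.

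Genes outside the rule carried the somitic label. In WT, Meox2, a homeobox gene of somites, was at 26.3 ± 10.7 CPM (SD, n = 6) in somitic cells and averaged 3.0 CPM in presomitic cells (those with Tbx6 and at least 2 of Msgn1, Hes7, Dll1 and Rspo3). Foxc2, a forkhead gene needed for somite formation, was at 143.3 ± 34.8 against 37.7 CPM, and Aldh1a2, which makes retinoic acid, at 354.2 ± 118.0 against 96.1 CPM. Over 9 somitic genes outside the rule the summed level was 406 to 905 CPM in somitic cells of the 13 libraries and 34.9 to 94.9 CPM in all other cells.

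Genes of later somite derivatives were detected in some of the cells, counted as cells with at least 1 UMI. Pax1, the sclerotome transcription factor, was detected in 16.4% of somitic cells, Pax9 in 10.5% and Myf5, the earliest myogenic factor, in 17.1%, whereas Nkx3-2, a later sclerotome gene, was at 0 CPM in all 6 WT libraries. As a measure of free RNA, globin-rich cells of WT embryos, with fewer UMIs (library medians of all groups 4422 to 43948), held a Pax1 UMI in 0.0329% and a Myf5 UMI in 0.0987% of cells. Pax1 differed widely between embryos, at 18.1 and 18.98 CPM in WT 1 and WT 2 and 1.02 to 6.06 CPM in the other 4 WT libraries. The same 2 libraries held more globin-rich cells, 1535 of 8415 in WT 1 and 1076 of 6416 in WT 2. WT 3, 4, 6 and 7 held 93 of 5251, 27 of 3801, 258 of 5244 and 21 of 3030. Why the WT libraries were split was not tested. Of the 2120 somitic cells 169 held all 4 genes, which needs both compartment markers, Uncx and Tbx18. Tcf15 was detected in 99.6% and Meox1 in 98.8% of them all. Just outside the rule, 3573 cells held 2 of the 4 with no Tbx6, and 375 held at least 3 together with Tbx6. The 3573 had 3.93 to 7.88 Tcf15 UMIs per cell, against 4.50 to 42.5 per somitic cell, as library means.

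Marker genes of other cell types were detected, at levels that varied by library. Erythroid genes (4) were the highest, at 306.7 to 2829 CPM over the 13 libraries, against 2777 to 28325 CPM in all other cells. Cardiac genes (3) summed to 12.97 to 163.8 CPM in WT, 23.9 to 186.7 in Dnmt3a KO and 100.6 to 385.9 in Dnmt3b KO, against 279 to 673 in all other cells. Head mesoderm genes (4) summed to 17.6 to 38.7 CPM in WT and 34.9 to 83.9 CPM in Dnmt3b KO, where all other cells had 23.2 to 52.1 CPM. Intermediate mesoderm genes (5) summed to 22.9 to 62.8 CPM over the 13 libraries against 23.8 to 47.8 CPM in all other cells. Yolk sac endoderm genes (4) summed to 18.5 to 366.9, 302.4 to 456.3 and 62.7 to 552.8 CPM in WT, Dnmt3a KO and Dnmt3b KO. Surface ectoderm genes (4) summed to 82.1 to 175.5 CPM and neural genes (4) to 5.18 to 124.9 CPM. Neural crest genes (3) stayed at or below 16.8 CPM and notochord genes (3) at or below 34.4 CPM in all 13 libraries. For possible doublets the neural, cardiac, endothelial, gut endoderm, surface ectoderm, neural crest, notochord and trophoblast lists were counted. At least 2 genes of 1 of these lists were found in 986 of the 2120 cells. Presomitic, lateral plate, intermediate mesoderm, head mesoderm, erythroid and yolk sac endoderm genes were not counted there. The surface ectoderm list holds Krt8 and Krt18, found in 44.9% and 49.0% of somitic cells and in 52.8% and 51.6% of presomitic cells. A deeper cell also reaches 2 genes more easily, so the count is no measure of doublets alone. Whether the marker transcripts came from the somitic cells or from other cells was not tested, nor was their part in the results. Of the 2120 cells 1113 were not possible doublets, and the fits were repeated on those of them that lay in the fitted libraries.

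How many somitic cells each genotype held was compared next. WT embryos held 19 to 266 somitic cells each, 1.20 to 3.89% of their cells, with a mean of 2.60% ± 1.04 (SD, n = 7). The Dnmt1 KO embryos held 11, 2 and 2 somitic cells, which were 0.726%, 0.0641% and 0.0818% of their cells. Each of the 3 lay below every WT embryo. Dnmt3a KO embryos ranged from 0.638 to 4.15% (n = 4), past the WT range on both sides. The 3 Dnmt3b KO libraries ranged from 1.02 to 2.02%, with the library labelled Dnmt3b KO 12 below every WT embryo and the other 2 inside the WT range.

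**Figure D1:**
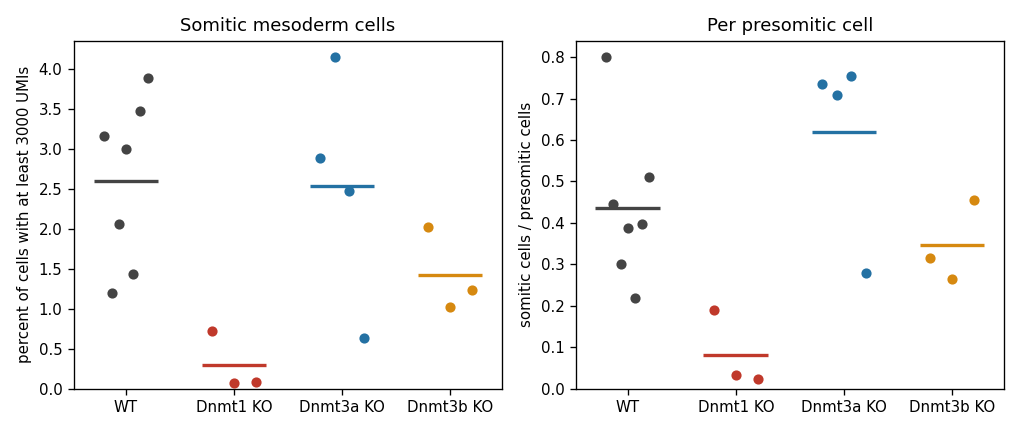
Somitic cells by library and genotype. The left panel gives them as a percentage of all cells with at least 3000 UMIs, the right panel as a ratio to presomitic cells of the same library, and lines are group means. The 3 Dnmt1 KO libraries lie below all 7 WT libraries in both panels.

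Because a deeper cell reaches 3 genes more easily, shares were tested after thinning every cell to 5000 UMIs, which left out 1049 Dnmt1 KO, 5079 Dnmt3a KO, 3686 Dnmt3b KO and 3930 WT cells below that depth. The thinned share was 0.676% ± 0.393 (SD, n = 7) in WT and 0.0468% ± 0.0811 (SD, n = 3) in Dnmt1 KO, a difference of -0.629 percentage points (exact two-sided permutation p = 0.0167, adjusted p = 0.05 over 3 comparisons, which did not fall under the threshold of 0.05). Without thinning, and with thinning to 10000 UMIs, the same exact permutation test gave an adjusted p of 0.025, but it gave 0.05 after thinning to 3000 UMIs and with mitochondrial and ribosomal filters, and 0.0714 to 0.143 when single WT libraries were left out. With 1 Dnmt1 KO library left out the smallest possible exact permutation p is 0.0278, so those fits could not pass after adjustment beside the other comparisons. The thinned Dnmt3a KO share was higher by 0.121 percentage points (exact permutation p = 0.642) and the Dnmt3b KO share lower by -0.350 (exact permutation p = 0.225, adjusted p = 0.338), neither beyond the spread between embryos. The sign of the Dnmt3a KO difference turned under other settings, 1 of them a cell filter that came with a new random thinning. Set against presomitic cells of the same library, somitic cells numbered 0.218 to 0.801 per presomitic cell in WT, 0.0235 to 0.190 in Dnmt1 KO, 0.279 to 0.755 in Dnmt3a KO and 0.265 to 0.455 in Dnmt3b KO. Presomitic cells themselves were 2.70 to 8.75% of WT cells and 1.96 to 3.83% of Dnmt1 KO cells, so the 2 ranges overlapped there.

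Uncx and Tbx18 belong to the rule, which needs at least 1 of them in every cell, so their shares are a description with no test. Cells with Uncx and no Tbx18 made up 20.2 to 27.8% of the somitic cells in 6 WT libraries, 15.99 to 37.1% in Dnmt3a KO and 9.84 to 32.6% in Dnmt3b KO. Cells with Tbx18 and no Uncx made up 60.2 to 70.2%, 53.2 to 70.5% and 64.2 to 78.7%. The groups overlapped for both. The library labelled Dnmt3b KO 12 had the fewest Uncx cells of the 13 libraries used for expression, 6 of 61. Of the 15 Dnmt1 KO somitic cells 7 held Uncx and 8 held Tbx18.

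Genes that differ between the 2 compartments were sought within embryos, by comparing 508 Uncx cells with 1322 Tbx18 cells over 12 libraries (all genotypes together, each library against itself), leaving out the 5 genes of the rule. Of 11015 genes, 28 were called (adjusted p under 0.01 and at least 2-fold by the edgeR quasi-likelihood test, 0.254% of those tested), 6 higher in Uncx cells (0.0545%) and 22 higher in Tbx18 cells (0.2%). The mean UMI count per cell had a median over libraries of 45991 in Uncx cells and 51894 in Tbx18 cells and was higher in Uncx cells in 5 of 12, and the part of depth in the calls was not tested. Uncx cells carried more Dmrt2, a transcription factor gene of the dermomyotome, and more of the Notch ligand Dll1 and the Notch feedback inhibitor Nrarp. Tbx18 cells carried more Traf3ip2, an adaptor of interleukin-17 receptors, Fli1, an ETS factor, and Pcdh8, the paraxial protocadherin.

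Dmrt2 ran from 15.96 to 59.1 CPM with a median of 34.8 in Uncx cells, and from 5.75 to 24.1 CPM with a median of 12.2 in Tbx18 cells. It was higher in the Uncx cells of all 12 libraries (log2 fold change 1.36, SE 0.14, adjusted p = 8.02e-06). Dll1 had medians of 10.5 and 4.74 CPM and was higher in Uncx cells in 11 of 12 libraries (1.20, SE 0.17, adjusted p = 0.000292). Nrarp, with medians of 11.7 and 4.36 CPM, was higher in 11 of 12 (1.52, SE 0.27, adjusted p = 0.00212). The other 3 genes called higher in Uncx cells were Kif26b, a kinesin family gene (log2 fold change 1.14), Foxl2, a forkhead gene better known from ovary (1.53), and 2610016A17Rik (1.33).

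Known posterior genes outside the call leaned the same way. Efnb2, a membrane-bound ephrin of posterior somite cells, had a median of 43.2 CPM in Uncx cells and 20.8 CPM in Tbx18 cells and was higher in 12 of 12 libraries; its log2 difference of 0.99 (SE 0.11, adjusted p = 2.55e-05) was just under the fold threshold. The Notch targets Hey1 and Heyl gave 0.87 (adjusted p = 0.0230) and 1.32 (adjusted p = 0.0143). Over the Notch list 13 of 14 genes were fitted higher in Uncx cells and 2 were called, with a median log2 fold change of 0.33 beside 0.01 over all genes tested. All 3 genes tested of the anterior list were fitted lower in Uncx cells, with a median of -0.68 (smallest adjusted p = 0.0395 by the edgeR test). Ripply2, which ends Tbx6 and Mesp2 activity, gave -2.01 (SE 0.55, adjusted p = 0.0398), and Epha4 was at 39.7 CPM on both sides (-0.03, SE 0.12, adjusted p = 0.966).

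**Figure D2:**
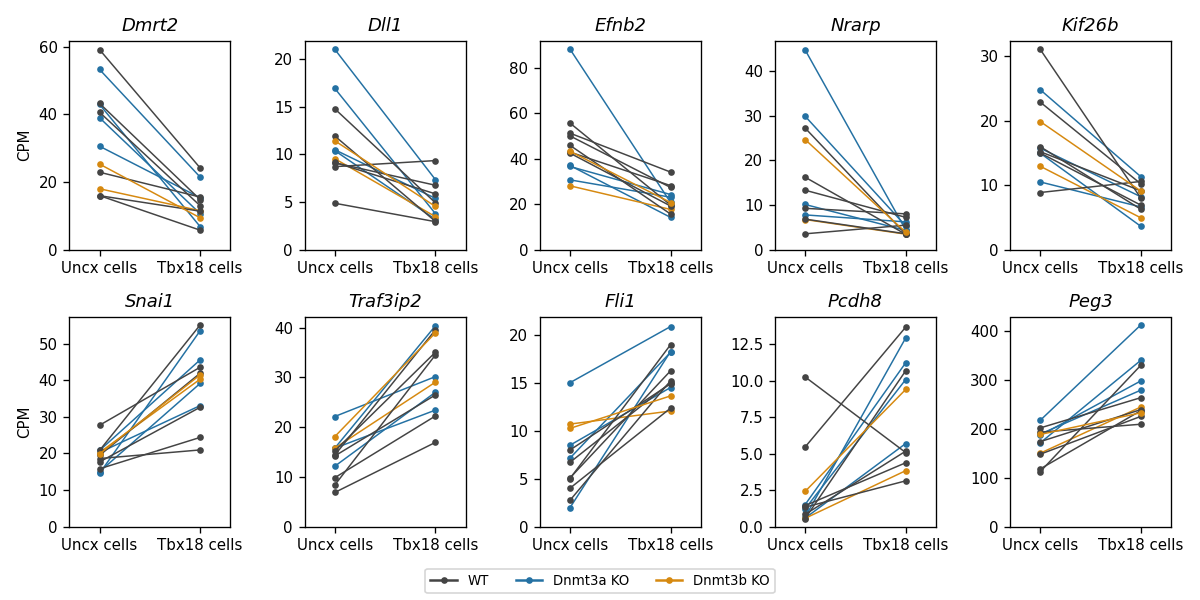
CPM of 10 genes in Uncx cells and Tbx18 cells of the same library. Each line is 1 of 12 libraries, coloured by genotype, and each vertical axis starts at 0. Dmrt2 and Efnb2 fall and Snai1, Traf3ip2, Fli1 and Peg3 rise from Uncx cells to Tbx18 cells in all 12.

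Traf3ip2 was at 6.85 to 22.1 CPM in Uncx cells and 16.9 to 40.4 CPM in Tbx18 cells and was lower in the Uncx cells of 12 of 12 libraries (log2 fold change -1.05, SE 0.10, adjusted p = 3e-06). Fli1 was at 1.95 to 15.004 against 12.1 to 20.9 CPM (-1.12, SE 0.18, adjusted p = 0.000784). Pcdh8 had medians of 1.27 and 7.55 CPM and was higher in Tbx18 cells in 11 of 12 libraries (-1.79, SE 0.33, adjusted p = 0.00279). The Tbx18 side of the call also held the prostaglandin F receptor gene Ptgfr (-1.32), the calmodulin-binding Pcp4 (-1.72), angiogenin (Ang, -1.93), the Src-family kinase gene Lyn (-1.10), the mannosidase gene Man1c1 (-1.28) and Saa2, an acute-phase protein gene (-1.16), each higher in Tbx18 cells in 12 of 12 libraries. Man1c1 kept its call in 2 of 12 fits that left out 1 library (highest adjusted p = 0.0251). Afp, a yolk sac and liver gene, was called on the same side (medians 10.1 and 38.7 CPM, higher in Tbx18 cells in 10 of 12), and the part of yolk sac RNA in it was not tested.

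Several genes passed the p threshold with smaller folds. Snai1, a repressor of epithelial genes, was at 14.5 to 27.7 CPM in Uncx cells and 21.0 to 55.2 CPM in Tbx18 cells and was lower in Uncx cells in 12 of 12 libraries (-0.94, SE 0.09, adjusted p = 4.99e-06). Prrx1, a mesenchymal homeobox gene, gave -0.73 (adjusted p = 0.00424), the collagen gene Col1a2 -0.67 (adjusted p = 0.00229) and the imprinted zinc finger gene Peg3 -0.65 (12 of 12, adjusted p = 4.39e-05). The retinoic acid receptor gene Rarb gave -0.52 (adjusted p = 0.00889) and the Hedgehog receptor gene Ptch1 -0.36 (adjusted p = 0.00996). Among 25 Hox genes tested, Hoxb4 passed the p threshold, higher in Uncx cells by 0.53 (SE 0.09, 11 of 12, adjusted p = 0.00123). Pax1 was higher in Tbx18 cells in all 12 libraries (means 15.1 and 6.55 CPM) without passing the test (-1.07, SE 0.28, adjusted p = 0.0339). The paraxial regulators Meox2, Foxc1 and Foxc2 gave -0.10, -0.06 and 0.07, with adjusted p of 0.670, 0.762 and 0.573. In the 6 WT libraries alone 5 genes were called, 3 higher and 2 lower in Uncx cells and 3 of them among the 28. Without possible doublets 59 were called, 25 higher and 34 lower and 18 of them among the 28, so the split of 6 and 22 depended on the cells and libraries used.

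Expression of somitic genes was then compared between genotypes. In Dnmt3a KO and Dnmt3b KO somitic cells none of them was called. In counts simulated with an assumed spread, the same test called 40% of 2-fold raised genes for Dnmt3a KO and 29% for Dnmt3b KO. For 4-fold raised genes it called 91% and 84%. A call also needs an estimated fold of at least 2, which a gene raised 2-fold can miss at any spread. An uncalled gene, here and in the lists below, is therefore not shown to be unchanged. Of 12 paraxial regulators tested, which include Foxc1, Foxc2, Twist1, Aldh1a2 and Fst, the median log2 fold change was 0.08 in Dnmt3a KO and -0.10 in Dnmt3b KO, where the medians over all 12423 genes were 8.2e-05 and -0.0048. The smallest adjusted p among the paraxial regulators was 0.754 in Dnmt3a KO and 0.492 in Dnmt3b KO. The 5 sclerotome genes tested had medians of 0.13 and 0.12. In Dnmt3a KO, Pax1 was at 22.0, 25.5, 18.7 and 11.1 CPM, above the highest WT library in 2 of 4 (1.35, SE 0.58, adjusted p = 0.583). The WT libraries were themselves split for Pax1, as given above, and the part of that split in this difference was not tested. The 9 dermomyotome and myotome genes tested had medians of -0.18 and -0.64.

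**Figure D3:**
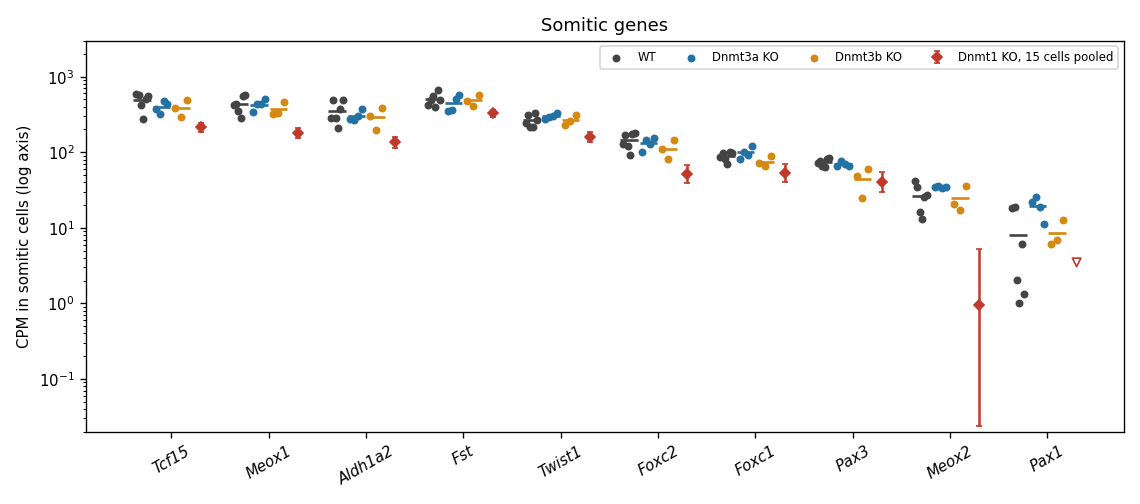
CPM of 10 somitic genes in somitic cells, on a log axis. Points are libraries and lines are means for WT, Dnmt3a KO and Dnmt3b KO. Diamonds are the 15 Dnmt1 KO cells pooled with 95% Poisson intervals, and the open triangle is the upper limit for 0 UMIs of Pax1. Dnmt3a KO and Dnmt3b KO points overlap WT points for all but Pax3 in Dnmt3b KO.

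Pax3, the dermomyotome transcription factor, was at 64.7 to 83.6 CPM in WT. The Dnmt3b KO libraries 11, 12 and combined were at 48.9, 24.4 and 59.8 CPM. All 3 lay below the WT range (1.73% of all genes did), but the difference did not pass the test (-0.71, SE 0.18, adjusted p = 0.125). The receptor gene Notch2 was at 22.7 to 37.1 CPM in WT and 22.0, 10.6 and 15.5 CPM in Dnmt3b KO (-0.81, SE 0.21, adjusted p = 0.128). In Dnmt3a KO the Notch target Hes5 was at 3.70 to 18.6 CPM against 1.16 to 5.91 CPM in WT (1.61, SE 0.42, adjusted p = 0.221).

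No gene was called in either comparison among the retinoic acid (11 tested), Hedgehog (10), Wnt (12), FGF (11), BMP (12), matrix and adhesion (18), Hox (25 tested of 39) or S phase (14) and G2 and M phase (14) lists. The Hox medians were 0.39 in Dnmt3a KO and -0.21 in Dnmt3b KO. Of 30 imprinted genes tested none was called. In Dnmt3a KO 25 were fitted higher and 5 lower (median 0.29), and in Dnmt3b KO 21 higher and 9 lower (median 0.12). Zdbf2, a paternally expressed gene, was at 31.0 to 61.0 CPM in WT, 13.9 to 27.7 CPM in Dnmt3a KO and 19.4, 2.77 and 29.5 CPM in the Dnmt3b KO libraries 11, 12 and combined, with no overlap with WT in either, as for 0.217% and 1.73% of genes tested (-0.99, adjusted p = 0.376, and -1.23, adjusted p = 0.216). Of 15 p53 targets tested 13 were fitted higher in Dnmt3b KO (median 0.51) and none was called. The library labelled Dnmt3b KO 12 stood apart there, with 29.98 CPM of the cell cycle inhibitor Cdkn1a and 57.7 CPM of Ccng1, where libraries 11 and combined had 5.22 and 9.71 CPM and 12.4 and 15.9 CPM, and WT had 3.75 to 5.80 and 8.92 to 13.5 CPM. The remaining lists, primed pluripotency (3 tested), interferon response (2) and housekeeping (18), held no called gene. All 3 primed pluripotency genes were fitted lower in both knockouts, with medians of -1.52 in Dnmt3a KO and -0.85 in Dnmt3b KO. The whole list summed to 3.01 to 35.4 CPM in WT, 4.23 to 5.97 CPM in Dnmt3a KO and 7.13 to 11.5 CPM in Dnmt3b KO, inside the wide WT range.

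In Dnmt3a KO somitic cells 9 of 12423 genes were called against WT (0.0724%), 8 higher (0.0644%) and 1, Dnmt3a itself, lower (0.00805%). The log2 fold change of Dnmt3a was -1.55 (SE 0.23, adjusted p = 0.00713). Of the 8 higher genes Slc25a31, Stk31, Cyct and Tex12 are genes of male germ cells, coding for an ADP/ATP carrier, a kinase, a cytochrome c and a part of the synaptonemal complex. Xlr3b and Xlr4b belong to an X-linked family of near-identical copies, Tgfb1i1 (Hic-5) codes for a focal adhesion adaptor and Selenbp1 for a selenium-binding protein.

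Slc25a31 was at 0, 0.694, 0.230, 0.114, 0.192 and 0.111 CPM in WT 1, 2, 3, 4, 6 and 7 and at 5.86, 5.30, 1.33 and 4.44 CPM in Dnmt3a KO 13, 14, 1 and 2. All 4 Dnmt3a KO libraries were above all WT libraries, as for 1.55% of all genes tested (4.42, SE 0.54, adjusted p = 0.00195). Tgfb1i1 was at 7.92, 7.64, 2.99, 4.44, 5.96 and 3.66 CPM in the WT libraries in the same order and at 17.7, 20.7, 15.2 and 18.5 CPM in Dnmt3a KO. The groups were again apart, by 1.70 (SE 0.22, adjusted p = 0.0025). Selenbp1 was at 0.333 to 1.23 CPM in WT and 2.36 to 4.13 CPM in Dnmt3a KO (2.33, SE 0.34, adjusted p = 0.00636). Xlr3b was at 9.72 CPM in the male WT 2, at 2.40 to 5.43 CPM in the other WT libraries and at 14.2 to 27.0 CPM in Dnmt3a KO (1.96, SE 0.29, adjusted p = 0.00636), and reads of near-identical Xlr copies may be assigned to the wrong member.

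Stk31, Cyct and Tex12 rested on 1 or 2 UMIs in all of WT. They could pass the filter on low counts only through the knockout libraries, so their number among the calls supports nothing about germ cell genes as a set. Their summed CPM in Dnmt3a KO was 96.2, 66.0 and 62.8 times that of WT, with counting intervals from 16.7, 17.8 and 10.8 upwards. Cyct was at 1.35 to 4.90 CPM in the 4 Dnmt3a KO libraries. With sex as a term in the model 6 genes were called, and 5 of the 9 were not: Tgfb1i1 (log2 fold change 1.49, adjusted p = 0.203), Selenbp1 (2.25, 0.374), Xlr3b (1.65, 0.318), Xlr4b (2.98, 0.0800) and Cyct (6.64, 0.0162). The folds of Xlr4b and Cyct were larger than without the term and the other 3 smaller. With a term for the combined human and mouse reference 4 genes were called, and Cyct (log2 fold change 5.47), Selenbp1 (2.23), Xlr3b (2.03), Tex12 (5.13) and Dnmt3a (-1.48) were not, at adjusted p of 0.0135 to 0.0160. Without possible doublets 2 genes were called, 1 of them (Tgfb1i1, adjusted p = 0.0022) among the 9, and Slc25a31 (log2 fold change 4.10, adjusted p = 0.0189), Xlr4b (2.90, 0.0189), Xlr3b (2.18, 0.0101), Cyct (4.69, 0.0633) and Dnmt3a (-1.53, 0.0101) were not, at folds close to or above those in all somitic cells except for Cyct; Stk31, Tex12 and Selenbp1 were too low to test there. The count also rested on single libraries: 0 genes were called by edgeR without Dnmt3a KO 13 or without WT 4 (611 and 788 at an unadjusted p under 0.05), 1 without Dnmt3a KO 14, 3 without WT 1, 3 or 6, 4 without Dnmt3a KO 2 or WT 7, 5 without Dnmt3b KO 11, and 14 without Dnmt3b KO 12 or WT 2. The model estimates 1 spread over all 3 genotypes, which is why Dnmt3b KO libraries enter here.

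The Dnmt3b KO comparison gave 51 called genes (0.411%), 49 of them higher (0.394%) and 2 lower (0.0161%). Of a list of 25 germ cell genes 14 were called higher, 5 were tested and not called and 6 were too low to test. Several of them had almost no UMIs in WT and could pass the filter on low counts only through the knockout libraries, so the count supports nothing about the list. In Dnmt3a KO 2 of the 25 were called (Stk31 and Slc25a31). The promoters of 3 of the genes described next are printed to show their sequence (RefSeq, GRCm38.p6, 250 bases before to 50 after the start, read 5′ to 3′ on the gene's strand, CpG sites in capitals). Slc25a31, at chr3:40708621-40708920 on the plus strand, has 22 CpG sites; Dazl, at chr17:50293571-50293870 on the minus strand, has 28; and Sycp1, at chr3:102936051-102936350 on the minus strand, has 21.
Slc25a31: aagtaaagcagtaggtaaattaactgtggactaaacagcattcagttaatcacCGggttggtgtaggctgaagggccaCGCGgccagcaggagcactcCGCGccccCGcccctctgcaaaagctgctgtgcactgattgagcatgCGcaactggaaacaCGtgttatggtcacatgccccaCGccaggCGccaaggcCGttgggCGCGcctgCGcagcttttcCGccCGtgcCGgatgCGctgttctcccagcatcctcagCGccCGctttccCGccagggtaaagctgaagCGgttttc
Dazl: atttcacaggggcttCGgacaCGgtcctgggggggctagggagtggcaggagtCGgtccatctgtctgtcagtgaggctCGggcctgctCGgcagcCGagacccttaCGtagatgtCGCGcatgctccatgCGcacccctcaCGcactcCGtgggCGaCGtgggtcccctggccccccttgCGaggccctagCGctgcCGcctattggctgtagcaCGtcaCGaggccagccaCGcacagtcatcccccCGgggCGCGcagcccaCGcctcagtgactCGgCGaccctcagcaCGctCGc
Sycp1: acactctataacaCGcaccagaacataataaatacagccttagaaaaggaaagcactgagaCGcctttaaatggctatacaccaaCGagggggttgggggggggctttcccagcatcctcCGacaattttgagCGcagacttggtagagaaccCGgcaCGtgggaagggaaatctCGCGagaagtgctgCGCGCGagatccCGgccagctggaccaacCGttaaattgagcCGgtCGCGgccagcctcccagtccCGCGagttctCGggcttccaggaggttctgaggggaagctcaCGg

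CpG content and the hexamers were counted over all promoters as a description. Among 42 of the 49 with a promoter in the table the median was 15.5 CpG sites (0 to 38), against 21 over 9565 tested genes and 7 over all 27025 promoters. The hexamer TCCCGC, searched on both strands, was in 38.1% of the 42, 37.4% of the tested genes and 20.02% of all promoters. The palindrome CACGTG was in 26.2%, 10.6% and 7.24%. The Slc25a31 and Sycp1 windows each hold 1 TCCCGC and 1 CACGTG and the Dazl window neither.

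Slc25a31, whose promoter is given above, was at 25.7, 47.0 and 18.8 CPM in Dnmt3b KO 11, 12 and combined, against at most 0.694 CPM in WT, with no overlap, as for 3.81% of all genes tested (7.22, SE 0.48, adjusted p = 6e-07). A UMI of it was found in 43.8% of Dnmt3b KO somitic cells and 0.905% of WT ones, and in 14.8% of the shallower Dnmt3b KO globin-rich cells. Sycp1, a central piece of the synaptonemal complex, was at 9.04, 21.2 and 6.54 CPM, with 150 UMIs against 1 in WT. Dazl, an RNA-binding factor of germ cells, was at 12.99, 134.2 and 2.77 CPM against at most 0.192 CPM in WT (8.63, SE 1.04, adjusted p = 0.000155). The library labelled Dnmt3b KO 12 was the highest and the combined library the lowest for all 3, and all were far above WT. Dazl UMIs were in 5 of 884 WT somitic cells, so the size of its fitted fold rests on few molecules. A Dazl UMI was in 20% of Dnmt3b KO somitic cells and in 16.6% of the globin-rich ones.

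Further genes are given by what they are known to do, a grouping made after their values were seen and not tested. Meiosis genes included Hormad1, which had no UMI in WT and was at least 163-fold higher in Dnmt3b KO (floor of 3 UMIs over the group), and outside the list Tex12, Syce1 (5.07), Hsf2bp (3.75), Rec114 (2.81) and Hormad2 (3.06). Genes known from the piRNA pathway, which silences transposons in germ cells, included Mov10l1, Asz1, Mael (4.60, adjusted p = 0.0011), Fkbp6 (6.13, adjusted p = 2.37e-05) and Ddx4 (2.97, adjusted p = 0.000291), and outside the list Gpat2 (6.37, adjusted p = 9.05e-06) and Rnf17 (1.65). Piwil2, of the same pathway, was too low to test. Ribosomal protein genes specialised for testis rose too: Rpl39l was at 45.1, 105.2 and 24.2 CPM against 0 to 4.63 CPM in WT (5.88, adjusted p = 3.22e-05), and Rpl10l was at least 47.8-fold higher. Tuba3a, a testis alpha-tubulin gene, was at 7.90, 11.1 and 5.55 CPM with 2 UMIs in WT, and reads may be shared with its near copy Tuba3b. Tex19.1, active in germ cells and placenta, was at 13.8, 77.9 and 5.55 CPM (7.40, adjusted p = 2.99e-05). Of the 5 list genes tested but not called, Sohlh2 had no UMI in WT and was at 2.80, 69.2 and 1.19 CPM (adjusted p = 0.0171), Brdt gave 2.95 (adjusted p = 0.0177), D1Pas1 4.44 (adjusted p = 0.0119), Tdrd1 1.14 (adjusted p = 0.365) and Tex15 0.58 (adjusted p = 0.507), and 6 were too low to test.

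**Figure D4:**
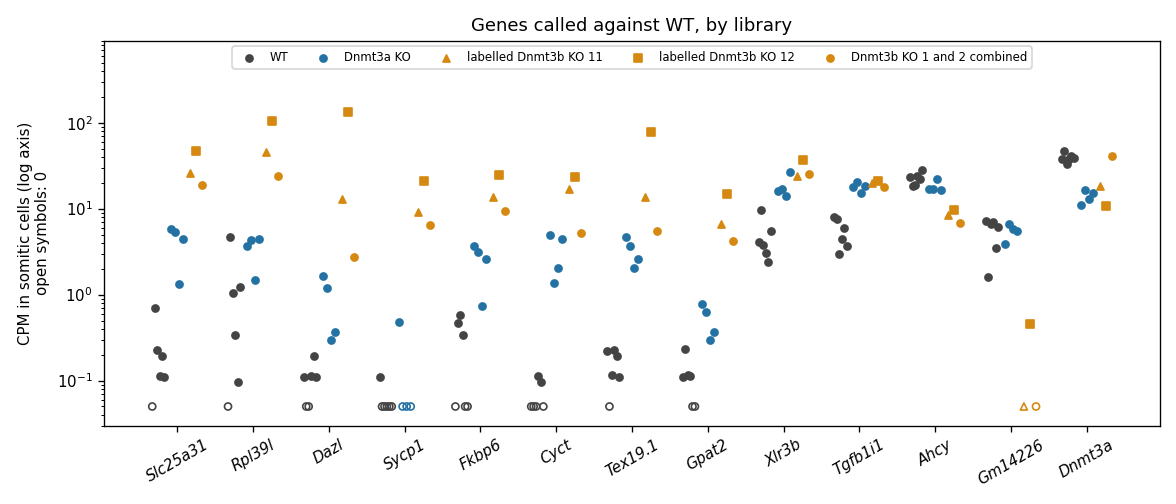
CPM of 13 called genes in somitic cells by library, on a log axis, with open symbols at the foot for 0. Triangles, squares and circles separate the libraries labelled Dnmt3b KO 11, Dnmt3b KO 12 and the combined library. Germ cell genes stand highest in the square, and Dnmt3a is low in the triangle and the square but not in the circle.

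The rest of the call was mixed. X-linked genes made up 12 of the 51 (449 X-linked genes were tested), 6 of them Xlr genes and 1 the placental homeobox gene Rhox6. Xlr3a was at 14.3, 29.5 and 14.3 CPM against 0.228 to 1.85 CPM in WT (3.91, SE 0.39, adjusted p = 2.99e-05) and was the only one called of 6 extraembryonic genes. Tgfb1i1 was at 19.996, 21.2 and 17.6 CPM (1.85, SE 0.24, adjusted p = 0.000311). Mtus2, a microtubule-associated protein gene, was at 7.77, 10.6 and 13.3 CPM against 0.683 to 1.995 CPM in WT (2.96, adjusted p = 2.99e-05), and Rinl, a Rab exchange factor gene, at 5.73, 11.99 and 7.13 CPM against 0.694 to 1.66 CPM (2.88, adjusted p = 2.99e-05). For Mtus2 the combined library, not library 12, was the highest.

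Both lower genes lie on chromosome 2. Ahcy, at chr2:155059310-155074497, codes for the enzyme that clears S-adenosylhomocysteine, the by-product of methylation. It was at 18.5 to 28.5 CPM in WT and 8.41, 9.68 and 6.74 CPM in Dnmt3b KO, with no overlap (-1.49, SE 0.19, adjusted p = 0.000226). Its neighbour Gm14226, at chr2:155018266-155027104, was at 1.62 to 7.14 CPM in WT and at 0, 0.461 and 0 CPM in Dnmt3b KO, 1 UMI in all against 280 in WT (ratio of summed CPM 0.0119, counting interval 0.0003 to 0.0669; adjusted p = 0.000579, and 0.122 without possible doublets). Dnmt3b lies on the same chromosome at chr2:153649450-153687730 (mm10), so an effect of the deleted enzyme and of chromosome segments inherited with the null allele cannot be told apart here. In presomitic cells of WT embryos Gm14226 was at 72.6 CPM.

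With sex as a term 61 genes were called in Dnmt3b KO, 44 of them among the 51, and without possible doublets 23, all among the 51. Without the library labelled Dnmt3b KO 12 the count was 40 (39 shared), without library 11 it was 44 (41 shared), and without the combined library, which left the 2 with low Dnmt3a, 63 (46 shared).

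Of the 15 Dnmt1 KO somitic cells 11 came from 1 embryo, so their values are pooled counts with 95% Poisson intervals, which cover counting error only, and no test was made. At least 2 genes of 1 of the lists counted for possible doublets were found in 10 of the 15. The part of such transcripts in the values was not tested. The rule admits deep cells more easily, and their median depth was 58669 to 110307 UMIs per library against 29001 to 66324 in WT, so the levels of its own genes are a description: Tcf15 was at 214.8 CPM (187.7 to 244.6) against 272.5 to 590.0 CPM in WT libraries, and Meox1 at 179.8 CPM (155.1 to 207.2) against 285.5 to 570.8 CPM. Of genes outside the rule, Foxc2 was at 52.0 CPM (39.2 to 67.7), below the lowest WT library at 92.3, and Aldh1a2 at 135.3 CPM (114.0 to 159.4), below 206.5. Meox2 was at 0.946 CPM (1 UMI) where WT libraries had 12.97 to 41.3 CPM, and Pax1 had 0 UMIs, which allows up to 3.49 CPM and so overlaps the WT range.

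Twist1 and Fst lay nearer to WT, at 159.9 CPM (136.7 to 185.9) and 327.4 CPM (293.8 to 363.7) against WT minima of 218.0 and 401.0. Prrx1 was at 65.3 CPM (50.8 to 82.6), above the WT maximum of 40.7. The posterior Hox genes Hoxa9, Hoxc8 and Hoxb9 had 0 UMIs, each allowing up to 3.49 CPM, where WT libraries had 0.926 to 6.71, 4.63 to 35.8 and 2.99 to 35.5 CPM, so that only for Hoxc8 did the limit lie below every WT library. Hoxb4 was at 5.68 CPM (2.08 to 12.4) against 23.8 to 46.8. Of 30 imprinted genes 10 had an interval above the WT range, 6 below it and 14 overlapping it. Grb10, a growth inhibitor gene, had 1 UMI (0.946 CPM, 0.0240 to 5.27) where WT libraries had 185.7 to 270.3 CPM, and Cdkn1c, a cell cycle inhibitor gene, had 3 UMIs (2.84 CPM, 0.585 to 8.29) where they had 76.9 to 167.1 CPM. In the other direction Peg3 was at 1084 CPM (1022 to 1149) against 192.0 to 262.5 CPM and H19 at 811.8 CPM (758.4 to 868.0) against 189.2 to 341.6 CPM. Germ cell genes were present: Rpl39l at 122.1 CPM (101.9 to 145.0), Tex19.1 at 34.1 CPM (23.9 to 47.2), Sycp1 at 20.8 CPM (13.04 to 31.5), Slc25a31 at 18.9 CPM (11.6 to 29.2) and Dazl at 18.0 CPM (10.8 to 28.1), against WT maxima of 4.63, 0.228, 0.112, 0.694 and 0.192 CPM. A UMI was found in 14 of the 15 cells for Rpl39l, 8 for Slc25a31 and 6 each for Sycp1 and Dazl. Tgfb1i1, in contrast, was at 2.84 CPM (0.585 to 8.29), which overlaps the WT range.

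Whether a knockout changed a gene more in somitic cells than in the other cells of the same embryos was tested by an interaction term. Of 18991 genes 2 were called for Dnmt3a KO (0.0105%), Xlr4b and Tgfb1i1, and 10 for Dnmt3b KO (0.0527%), all with the larger effect in somitic cells. Tgfb1i1 rose from a mean of 5.43 CPM in WT somitic cells to 18.0 CPM in Dnmt3a KO and 19.6 CPM in Dnmt3b KO, while in the other cells it went from 11.3 to 14.4 and 15.3 CPM (difference of the log2 effects 1.39, SE 0.17, adjusted p = 0.00203, and 1.47, SE 0.20, adjusted p = 0.00223). Presomitic cells had 5.48, 7.13 and 6.85 CPM of it.

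**Figure D5:**
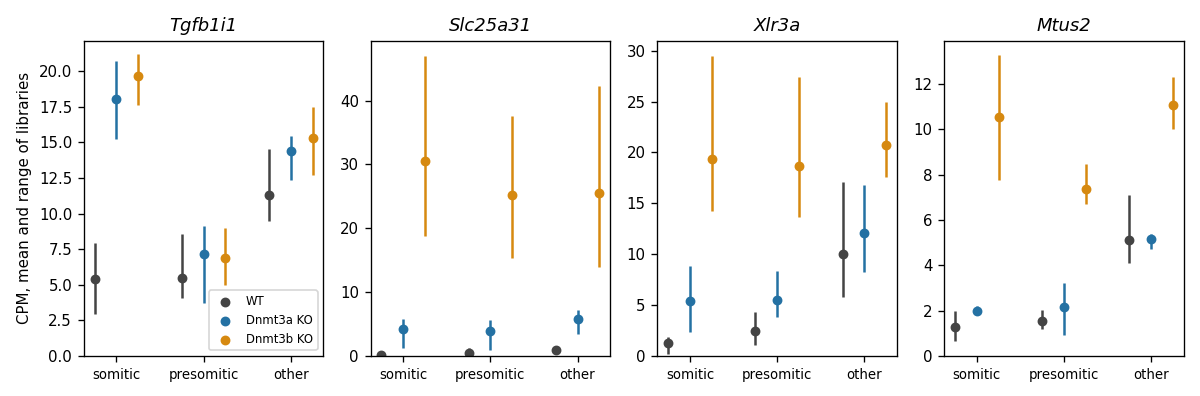
CPM of 4 genes in somitic cells, presomitic cells and all other cells. Dots are group means and bars run from the lowest to the highest library. Tgfb1i1 is raised in knockout somitic cells and near the WT level in presomitic cells, whereas Slc25a31 is raised in all 3 cell sets of Dnmt3b KO.

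Slc25a31, Xlr3a and Mtus2 started from lower WT levels in somitic cells than in the other cells. Slc25a31 reached 30.5 CPM in Dnmt3b KO somitic cells and 25.6 CPM in the other cells, from WT means of 0.223 and 0.989 CPM (2.70, SE 0.39, adjusted p = 0.0058). Xlr3a reached 19.3 and 20.8 CPM from 1.24 and 10.0 CPM (2.90, SE 0.27, adjusted p = 3.9e-05), and Mtus2 10.6 and 11.1 CPM from 1.28 and 5.13 CPM (1.83, SE 0.27, adjusted p = 0.0058). Leaving out 1 library at a time, Xlr3a was called in 13 of 13 fits, Tgfb1i1 in 12 of 13 for each knockout, Mtus2 in 8 of 13 (adjusted p up to 0.0859) and Slc25a31 in 6 of 13 (up to 0.0330). The Dnmt3b KO count fell from 10 to 5 without Dnmt3b KO 11, WT 1 or WT 4 and to 6 without WT 3, WT 7 or the combined library. The Dnmt3a KO count was 1 without Dnmt3a KO 14 and 7 without WT 2. With presomitic cells in place of all other cells no gene was called by edgeR, with 831 genes for Dnmt3a KO and 769 for Dnmt3b KO at an unadjusted p under 0.05. For Tgfb1i1 that comparison gave 1.34 (SE 0.24, adjusted p = 0.217) and 1.51 (SE 0.27, adjusted p = 0.27), and for Slc25a31 in Dnmt3b KO 1.28 (SE 0.39, adjusted p = 0.809).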

How the data were processed

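Cells of 18 E8.5 embryos were profiled with 10x 3′ chemistry. The deposited values were UMI counts per gene and cell that the authors made with Cell Ranger on mm10 (per the file headers version 3.1.0 in 17 files and 5.0.0 in 1; the authors' methods give 5.0.0), already limited to called cells. In 4 libraries a combined human and mouse reference was used, and only mouse rows were kept here. Counts were summed over somitic cells per library and scaled to CPM. Group differences were tested with edgeR 4.0.16 (R 4.3.3, filterByExpr, TMM, quasi-likelihood test, Benjamini-Hochberg adjustment), called at an adjusted p under 0.01 and an absolute log2 fold change of at least 1. The compartment and cell set fits had the library as a block. Shares of cells were tested by exact two-sided permutation over libraries with Python 3.11.15 and scipy 1.17.1, adjusted over 3 comparisons. DESeq2 1.42.0, RLE scaling, no filter on low counts, terms for sex and reference, a replicate block, filters on cells and leaving out each library were alternatives.

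Embryos were the replicates, and groups came from the sample labels. Intervals cover counting error only. WT 5 (19 somitic cells) and the Dnmt1 KO libraries had under 20 somitic cells and entered no fit, so the planned Dnmt1 KO fits were not made. No doublet caller was run. Somitic cells above 2 times the median UMI count of their library's somitic cells were possible doublets. So were those with at least 2 genes of 1 list among neural, cardiac, endothelial, gut endoderm, surface ectoderm, neural crest, notochord and trophoblast. The somitic cells and gene lists were chosen with earlier results of these data known. Genes were named from the lists, from the targeted genes and, in each comparison, as the 10 of lowest p in each direction among called genes whose libraries all lay on 1 side; other genes were chosen after their values were seen. Some genes of the lists are not reported here by name. Scripts were tested on simulated data.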

Additional observations from a re-analysis of the deposited data

Results flagged for a closer look

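Among 53 groups of 4 to 10 libraries examined for a library far from the others, 1 stood out, where chance alone gives about 1 in 20: Ahcy in Dnmt3a KO 1 was at 21.8 CPM and in the other 3 Dnmt3a KO libraries at 16.3 to 16.98 CPM.

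The effect of Dnmt3a KO differed between somitic and other cells for Xlr4b, by 2.57 on the log2 scale (edgeR, adjusted p = 0.000613), and Tgfb1i1, by 1.39. The effect of Dnmt3b KO differed for 4 genes of the X-linked Xlr and Rhox families beside Xlr3a (2.90): Xlr4c by 4.32, Xlr4a by 3.21, Xlr4b by 2.87 and Rhox6 by 2.50. Reads may be shared among the near-identical Xlr copies, and Xlr4a and Rhox6 were each called in 4 of 13 fits that left out 1 library. It also differed for Tex19.1 by 3.89, Mbl2, a liver lectin gene, by 2.84, Slc25a31 by 2.70, Mtus2 by 1.83 and Tgfb1i1 by 1.47. With presomitic cells as the comparison, none of these differences passed the test.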

How the results depend on the processing

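The Dnmt1 KO share of somitic cells differed from WT by -2.31 percentage points without thinning and -1.49 after thinning to 10000 UMIs, both under the threshold; it was -0.354 after thinning to 3000 UMIs and -0.748 with mitochondrial and ribosomal filters (adjusted p = 0.05 by exact permutation test for both), and -0.711 to -0.552 leaving out single libraries. Without a WT library the adjusted p was 0.0714 to 0.143; without a Dnmt1 KO library the smallest exact p is 0.0278, too large to pass after adjustment beside the other comparisons. The Dnmt3a KO difference turned to -0.0639 without thinning, -0.00258 after thinning to 3000 UMIs and -0.111 with mitochondrial and ribosomal filters on a new random thinning, and ran from -0.0596 to 0.289 leaving out single libraries; no setting took it under the threshold. With the same filters on the same thinned counts, chosen after seeing the data, it was 0.130, so the turn came with the new draw. Of genes called, Dnmt3a KO gave 9, but 25 with no low-count filter, 24 with DESeq2, 4 with a term for the reference, 6 with a term for sex, 2 without possible doublets (1 shared with the 9) and 0 to 14 leaving out single libraries. Dnmt3b KO gave 51, but 92 with no filter and 23 without possible doublets, and 40 to 63 leaving out single libraries. The compartments gave 28, but 75 with no filter, 5 in WT libraries alone, 59 without possible doublets and 19 to 31 leaving out single libraries. The cell set comparison gave 2 for Dnmt3a KO and 10 for Dnmt3b KO, but 7 and 11 with no filter, 0 and 0 against presomitic cells, and 1 to 7 and 5 to 11 leaving out single libraries. Fewer genes and cells entered the fits without doublets; otherwise the cause was not tested. Of the 39 results for genes named by rule, some genes in several comparisons, none changed direction and all stayed called under RLE scaling and with no filter. Other settings took calls away: 17 of the 39 lost theirs in at least 1 fit that left out a library. Without possible doublets 6 results lost their call, and 5 did with the term for sex and 5 with that for the reference. In WT libraries alone 6 compartment results lost it and 3 kept it, and against presomitic cells all 9 cell set results lost it.

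Whether replicate numbers pair these embryos could not be decided, as differently numbered libraries were not compared. Same-numbered libraries correlated at 0.235 and 0.263 between Dnmt3a KO and WT, and at -0.177 and -0.211 with the combined Dnmt3b KO library. With the replicate block, a library whose number occurs in no other genotype adds nothing to a comparison. For Dnmt3a KO this left Dnmt3a KO 1 and 2 and WT 1 and 2, and 6 genes were called (2 shared with the 9). For Dnmt3b KO it left the combined library alone, so no count is given.

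Depth limits genes at a few UMIs, and somitic cells numbered only 61 in the library labelled Dnmt3b KO 12 and 15 in all Dnmt1 KO embryos.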
